A study of Mus musculus with 6 samples.

Results

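The fatty acid synthesis and desaturation genes are 10 genes chosen by name, namely Srebf1, Acly, Acaca, Fasn, Scd1, Scd2, Fads1, Fads2, Elovl5 and Elovl6. All 10 were found among the 43346 genes of the count table, and all 10 passed the filter on low counts. RNA was measured in primary cell cultures from the cortex of mouse fetuses at gestational day 15.5, which were given 1 mM 10HDA, a hydroxylated unsaturated fatty acid of royal jelly, or the vehicle DMSO alone. There were 6 libraries, 3 per treatment, and each of cultures 1, 3 and 4 gave 1 vehicle and 1 10HDA library. The labels give the strain of all libraries as Cyp19-EGFP and their genotype as SRY+, that is male, whereas C57BL/6 embryos are named in the methods. The length of the treatment is not given in the sources used here.

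Cells make fatty acids from citrate that leaves the mitochondria. ATP citrate lyase cuts citrate into acetyl-CoA, acetyl-CoA carboxylase turns it into malonyl-CoA, and fatty acid synthase builds palmitate, which elongases lengthen. Stearoyl-CoA desaturases place a double bond in saturated chains to give oleate and palmitoleate, and the delta-5 and delta-6 desaturases act on the essential fatty acids to give arachidonate and docosahexaenoate, long polyunsaturated chains that brain membranes hold in large amounts. Many of these genes are classical targets of the transcription factor SREBP1, whose activity can be lowered by polyunsaturated fatty acids.

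The libraries held from 9144736 to 13367194 counts on genes. Values are given as CPM, read counts relative to the library total after scaling by the trimmed mean of M-values, and adjusted p-values are from edgeR's quasi-likelihood test unless another tool is named. Ddx3y, Eif2s3y, Kdm5d and Uty, Y-linked genes that a male culture should express, summed to 9.07 and 9.30 CPM in the vehicle and 10HDA libraries of culture 1, against 97.8 to 136 CPM in cultures 3 and 4, so that culture 1 went against its label and the main results are also given without it. The neuronal genes Tubb3 and Map2 were abundant (1391 to 1655 and 1697 to 1979 CPM as treatment means), the astrocyte genes Slc1a3 and Gfap were present, and the microglial gene Aif1, the endothelial gene Cldn5 and the fibroblast gene Col1a1 were at most at 0.64, 0.15 and 1.74 CPM. In RNA from whole cultures, fewer cells of a type and less RNA per cell cannot be told apart.

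Of the 10 genes, Scd1 was called lower with 10HDA in the comparison without a culture term, by 32.9%. Fads2 fell by 29.3% there and missed the threshold. When each 10HDA library was compared with the vehicle library of its own culture, Fads2 was called lower together with Scd1, by 28.9%. Scd1 encodes a delta-9 desaturase, which makes monounsaturated fatty acids, and Fads2 encodes the delta-6 desaturase, which takes the first step from the essential fatty acids. Of the other 8 genes, 7 had small negative log2 fold changes and Srebf1 had 0.02, and none of these 8 passed the threshold with or without the culture term (edgeR adjusted p from 0.58 to 0.97 without it and from 0.31 to 0.98 with it). Of these 8 genes, 0 had an unadjusted p under 0.05 in either of these fits, nor did any of them pass with DESeq2 or limma-voom.

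Against this, 45 of 10520 tested genes were called lower without the culture term (0.428%) and 21 higher (0.200%), at an adjusted p under 0.1. With culture as a block, 534 genes (5.08%) were called lower and 411 (3.91%) higher. Thus 1 of 10 members was lower without the block and 2 of 10 with it, and 0 were called higher. With cultures 3 and 4 alone and culture as a block, the members called were Scd1 and Fads2, where 4.09% of all tested genes were called lower. So few libraries remain in that fit that its p-values rest mostly on the spread borrowed from all tested genes. Without the block, the same libraries gave edgeR adjusted p of 0.308 for Scd1 and 0.602 for Fads2.

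**Figure D1:**
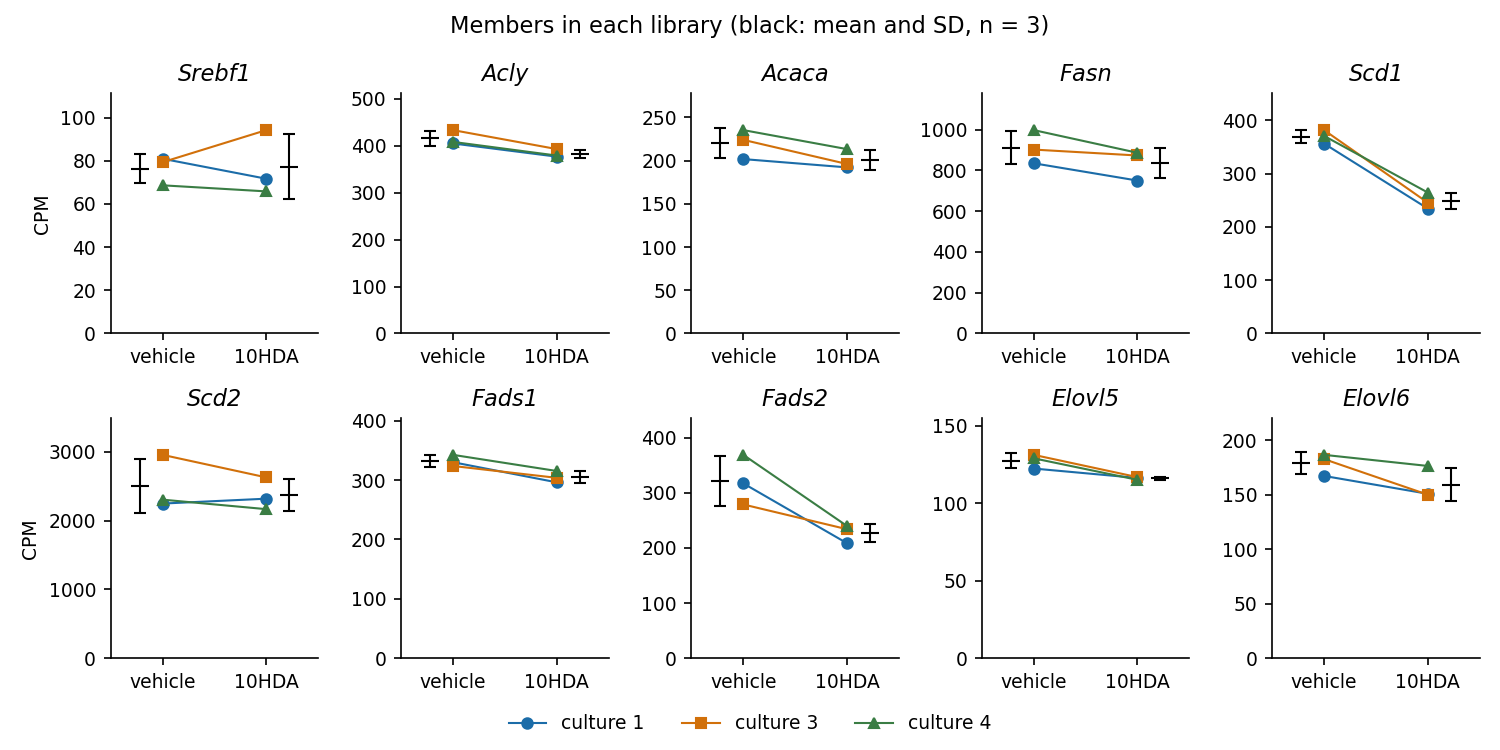
CPM of each of the 10 genes (vertical axes, each from 0) in the vehicle and 10HDA libraries, with a line joining the libraries of a culture and the mean and SD of 3 libraries in black. All 3 lines of Scd1 and of Fads2 go down from vehicle to 10HDA, whereas those of Srebf1 and Scd2 go both ways.

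Scd1 and Scd2 lie close together on chromosome 19, in opposite orientation, Scd1 from 44394455 to 44407879 and Scd2 from 44293674 to 44306864 (GRCm38, GENCODE M21), and are paralogs with the same enzymatic activity. Because they are close in sequence, it matters whether reads of 50 bases can tell them apart. Over their coding sequences, of 1068 and 1077 bases, the 1068 aligned bases were 90.4% identical, and the longest identical run was 147 bases. The last 120 coding bases of both, stop codon included, are shown because the values of the pair moved unequally. They were read from GENCODE M21 transcripts (5′ to 3′), with capitals at the 15 positions where the genes differ.
Scd1: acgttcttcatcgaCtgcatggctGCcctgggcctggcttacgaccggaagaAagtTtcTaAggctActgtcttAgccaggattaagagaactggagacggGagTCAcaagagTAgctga
Scd2: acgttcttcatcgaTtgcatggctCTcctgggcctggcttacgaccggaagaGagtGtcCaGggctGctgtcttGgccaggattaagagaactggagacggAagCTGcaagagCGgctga
Of all stretches of 50 bases in annotated Scd1 transcripts, 4.56% also occur in a transcript of another gene, mostly of Scd3, Scd2 and Scd4. For Scd2 the share was 3.97%. Scd3 and Scd4 had at most 429 and 12 counts per library, against at least 2357 for Scd1 and 19335 for Scd2.

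Scd1 had 356, 382 and 371 CPM in the vehicle libraries of cultures 1, 3 and 4, and 234, 245 and 264 CPM in the 10HDA libraries of the same cultures. The highest 10HDA library lay well under the lowest vehicle library. The means were 369 ± 12.7 CPM with vehicle and 248 ± 15.2 CPM with 10HDA (SD, n = 3 each), which is a log2 fold change of -0.58 (95% confidence interval from -0.78 to -0.37, edgeR adjusted p = 0.043). A larger log2 fold change in either direction was found for 1.56% of the tested genes. With culture as a block the log2 fold change was again -0.58 (edgeR adjusted p = 0.00025). The log2 ratios within cultures 1, 3 and 4 were -0.60, -0.64 and -0.49.

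The call on Scd1 without the block was lost when any of 4 libraries was left out, namely the vehicle libraries of cultures 3 and 4 and the 10HDA libraries of cultures 1 and 3 (edgeR adjusted p from 0.14 to 0.35), while the log2 fold change stayed between -0.62 and -0.53 over all 6 libraries left out in turn. Without both libraries of culture 1 it was -0.55 (edgeR adjusted p = 0.31, and 0.0017 with culture as a block).

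Scd2, the desaturase that predominates in the developing brain, was the most abundant of the 10 genes. It had 2249, 2958 and 2306 CPM in the vehicle libraries of cultures 1, 3 and 4, and 2321, 2630 and 2168 CPM in the 10HDA libraries. The treatments overlapped, and culture 3 was the highest under both. The log2 fold change was -0.08 (95% confidence interval from -0.39 to 0.23, edgeR adjusted p = 0.86), an interval that includes 0 and overlaps that of Scd1 at its lower end. Without the vehicle library of culture 3 it was 0.08. Scd2 held from 42.6% to 50.2% of the summed CPM of the 10 genes in a library.

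The ratio of the 2 genes within a library does not depend on how the libraries are scaled. Per 100 Scd2 counts there were 15.8, 12.9 and 16.1 Scd1 counts in the vehicle libraries of cultures 1, 3 and 4. In the 10HDA libraries there were 10.1, 9.32 and 12.2. All 3 10HDA libraries lay under all 3 vehicle libraries, with a mean log2 difference of -0.51. An exact permutation test (two-sided) over the libraries, without regard to culture, gave p = 0.1, the smallest that 3 libraries against 3 allow. Benjamini-Hochberg adjustment over the 2 ratios examined leaves it at 0.1. The ratios were chosen after the values of these genes had been seen.

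Fads1 and Fads2 lie close together on chromosome 19 as well, Fads1 from 10182888 to 10196877 on the plus strand and Fads2 from 10062765 to 10101746 on the minus strand, and encode the delta-5 and the delta-6 desaturase of the same pathway. Over 1314 aligned coding bases they were 68.9% identical, with no identical run over 17 bases. The share of 50-base stretches found in another gene was 0 for Fads1 and 0.152% for Fads2, the latter shared with Fads3.

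Fads2 had 317, 279 and 369 CPM in the vehicle libraries of cultures 1, 3 and 4, and 208, 234 and 240 CPM in the 10HDA libraries. The treatments did not overlap, although the vehicle library of culture 3 came close to the 10HDA libraries. The log2 fold change was -0.50 (95% confidence interval from -0.76 to -0.24), and the edgeR adjusted p of 0.15 missed the threshold. With culture as a block it was -0.49 (95% confidence interval from -0.69 to -0.29, edgeR adjusted p = 0.0022). The log2 ratios within cultures 1, 3 and 4 were -0.61, -0.25 and -0.62, so that the change in culture 3 was the smallest. Without the block it passed once the 10HDA library of culture 4 was left out (log2 fold change of -0.54, edgeR adjusted p = 0.081). Without culture 1 the log2 fold change was -0.43 (edgeR adjusted p = 0.60), and with culture as a block it was -0.42 (edgeR adjusted p = 0.022).

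Fads1 had 330, 324 and 343 CPM with vehicle and 296, 304 and 315 CPM with 10HDA in cultures 1, 3 and 4. The treatments did not overlap here either, but the difference was small. The log2 fold change was -0.12 (95% confidence interval from -0.32 to 0.07, edgeR adjusted p = 0.65). Per 100 Fads1 counts there were 96.1, 86.1 and 108 Fads2 counts in the vehicle libraries of cultures 1, 3 and 4, and 70.4, 77.0 and 76.0 in the 10HDA libraries, which all lay lower (mean log2 difference of -0.37, exact permutation test, two-sided, p = 0.1, the smallest possible).

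**Figure D2:**
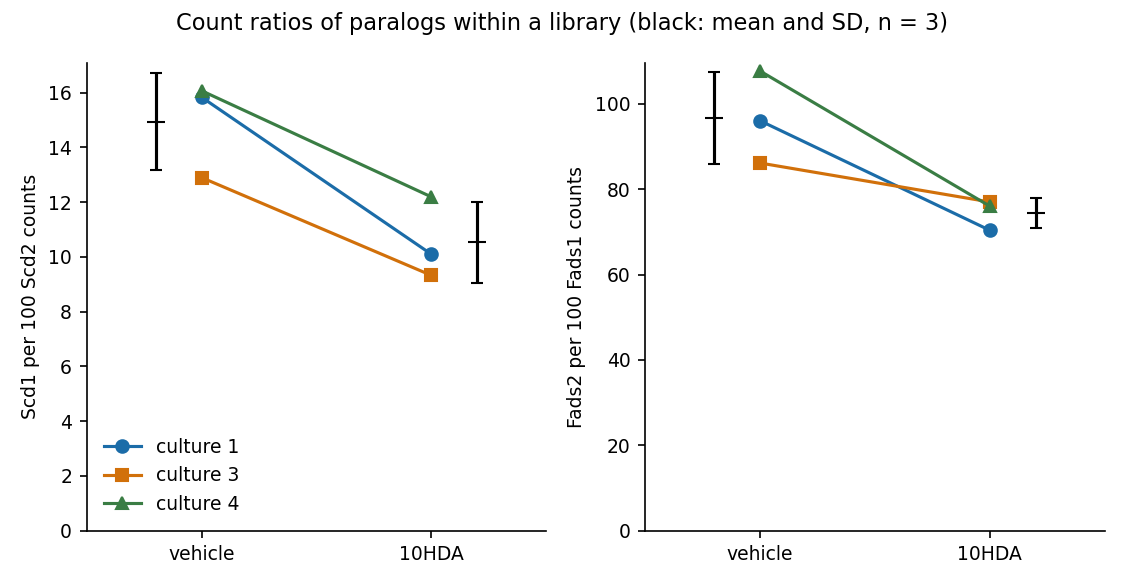
Counts of Scd1 per 100 counts of Scd2 (left) and of Fads2 per 100 counts of Fads1 (right) in each library, with lines joining the libraries of a culture and the mean and SD of 3 libraries in black. In both panels the 3 10HDA libraries lie under the 3 vehicle libraries, and in culture 3 the Fads2 ratio goes down least.

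The genes of synthesis proper form a single line from citrate to palmitate. Acly, ATP citrate lyase, had 405, 434 and 408 CPM in the vehicle libraries of cultures 1, 3 and 4 and 377, 393 and 379 CPM in the 10HDA libraries. Its libraries separated by treatment, with a log2 fold change of -0.12. Acaca, acetyl-CoA carboxylase 1, had 202, 224 and 235 CPM with vehicle and 192, 196 and 213 CPM with 10HDA (log2 fold change of -0.14). The treatments overlapped for Acaca. It shares the most sequence with other genes, as 30.4% of its 50-base stretches also occur in other transcripts, nearly all in those of Gm5182. The counts of Acaca are therefore the least certain of the set, and Gm5182 had no row under that name in the count table.

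Fasn, fatty acid synthase, had 835, 902 and 997 CPM with vehicle and 749.7, 873 and 886 CPM with 10HDA. Its treatments overlapped, and in each culture the 10HDA library was the lower. The log2 fold change was -0.12 (95% confidence interval from -0.38 to 0.13). The 95% confidence intervals of Acly and Acaca were from -0.32 to 0.08 and from -0.35 to 0.08. All 3 intervals include 0 and end above the -0.58 of Scd1.

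Fasn is shown with its promoter because it is a classical target of SREBP1 and did not pass the test. The sequence is the 250 bases before the RefSeq start of Fasn, chr11:120824548-120824797 of GRCm38.p6, minus strand, 5′ to 3′, with capitals at the CCAAT boxes, the motif of the factor NF-Y.
Fasn: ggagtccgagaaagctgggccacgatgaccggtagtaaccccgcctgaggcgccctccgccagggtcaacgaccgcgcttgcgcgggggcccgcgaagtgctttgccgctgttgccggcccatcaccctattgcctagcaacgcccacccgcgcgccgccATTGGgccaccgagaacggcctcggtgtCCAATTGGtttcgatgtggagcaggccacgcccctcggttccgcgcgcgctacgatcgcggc
The letters CCAAT occurred at 90, 62 and 59 bases before the start, the first and last on the opposite strand, and the last 2 matches overlap. RefSeq promoters were matched for 7 of the 10 genes (9 windows, Srebf1 having 3), and CCAAT was found on either strand for Srebf1, Fasn and Elovl5, against 33.8% of 32817 promoters of the same length. The SREBP motif TCACNCCAC was found in 0 of these 9 windows and in 1.05% of all promoters. At so low a share, 0 of 9 windows does not show that these genes lack SREBP sites. GGGCGG, the GC box, was found for Srebf1, Acly and Fads2 (32.7% of all promoters), and the E-box CACGTG for Elovl5 (6.02%). The RefSeq window of Fads2 reaches 10101753, whereas the minus-strand gene in GENCODE M21 starts at 10101746. Nearly all of that window thus lies inside the annotated gene. No window was matched for Scd1, Scd2 and Fads1.

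Srebf1 encodes SREBP1. It had 81.0, 79.4 and 68.6 CPM in the vehicle libraries of cultures 1, 3 and 4, and 71.7, 94.2 and 65.8 CPM in the 10HDA libraries. Culture 3 was higher with 10HDA and the other cultures were lower. The log2 fold change was 0.02 (95% confidence interval from -0.28 to 0.33, edgeR adjusted p = 0.97), and it was -0.15 without the 10HDA library of culture 3. The annotated exons of Srebf1 share 109 bases with those of Rai1 on the opposite strand, and the strand setting of the counting is not given in the sources used here. SREBP1 is regulated by cleavage of the protein, which counts of its RNA do not measure.

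The elongases act on the products of both branches, Elovl6 on palmitate and Elovl5 on polyunsaturated chains. Elovl6 had 167, 183 and 186 CPM with vehicle and 151, 149.9 and 176 CPM with 10HDA in cultures 1, 3 and 4 (log2 fold change of -0.17, 95% confidence interval from -0.39 to 0.05). Elovl5 had 122, 131 and 129 CPM with vehicle and 116, 117 and 115 CPM with 10HDA (log2 fold change of -0.14, 95% confidence interval from -0.33 to 0.06). The libraries of Elovl5 separated by treatment and those of Elovl6 did not. Neither passed the threshold (edgeR adjusted p = 0.58 for Elovl6 and 0.62 for Elovl5).

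**Figure D3:**
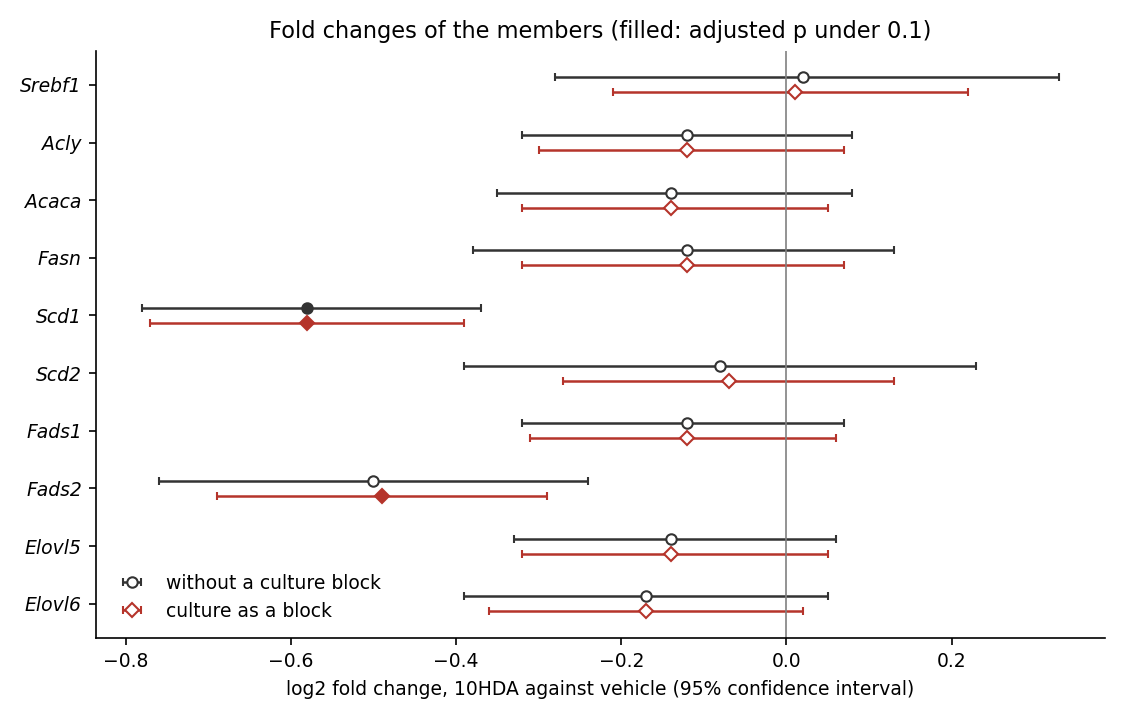
Log2 fold changes of the 10 genes, 10HDA against vehicle, with their 95% confidence intervals, without a culture block (circles) and with one (diamonds), filled where the adjusted p was under 0.1. Scd1 is filled in both fits at -0.58 and Fads2 with the block, whereas the intervals of the other 8 genes include 0.

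By direction alone, 8 of the 10 genes were lower with 10HDA in all 3 cultures, the exceptions being Srebf1 and Scd2, and 6 were with library size alone as the scaling, which left out Fasn and Elovl6. Of all tested genes, 21.0% were lower in all 3 cultures. For 5 genes (Acly, Scd1, Fads1, Fads2 and Elovl5) all 10HDA libraries lay under all vehicle libraries, against 7.44% of all tested genes. With library size alone these 5 became 3, Scd1, Fads1 and Fads2. The median log2 fold change of the 10 genes was -0.13, and that of all tested genes was -0.010. Within cultures 1, 3 and 4 the median of the 10 genes was -0.15, -0.17 and -0.13. With library size alone the medians of the 10 and of all genes were -0.053 and 0.067. The 10 genes were measured in the same 6 libraries, so these counts are not independent observations.

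Per kilobase of the gene length in the table, Scd2 stood highest in the vehicle libraries, with 459 ± 72.2 CPM per kilobase (SD, n = 3). Fads2 followed with 213 ± 30.0, then Fads1 with 96.1 ± 2.76 and Fasn with 92.5 ± 8.30. Acly and Scd1 had 78.7 ± 2.95 and 76.4 ± 2.64, Elovl5 and Elovl6 had 36.2 ± 1.30 and 30.0 ± 1.72, and Acaca and Srebf1 were lowest with 14.5 ± 1.13 and 13.5 ± 1.19. In this order the vehicle libraries of Fads1 and Fasn, of Acly and Scd1, and of Acaca and Srebf1 overlapped, and the other neighbours did not. The model of Fads2 in the table, of 1508 bases, is shorter than its exons in GENCODE M21, which cover 3295 bases, so that its level per kilobase depends on the annotation. The same holds for Fads1 (3456 against 4812 bases), Fasn (9849 against 10947) and Acaca (15155 against 17074). The order of these genes depends on it as well.

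With 10HDA, Scd1 had 51.3 ± 3.14 CPM per kilobase and Acly 72.6 ± 1.65 (SD, n = 3 each), and their libraries no longer overlapped. Fads2 had 151 ± 11.03 CPM per kilobase and stayed above Fads1, with 88.3 ± 2.78.

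**Figure D4:**
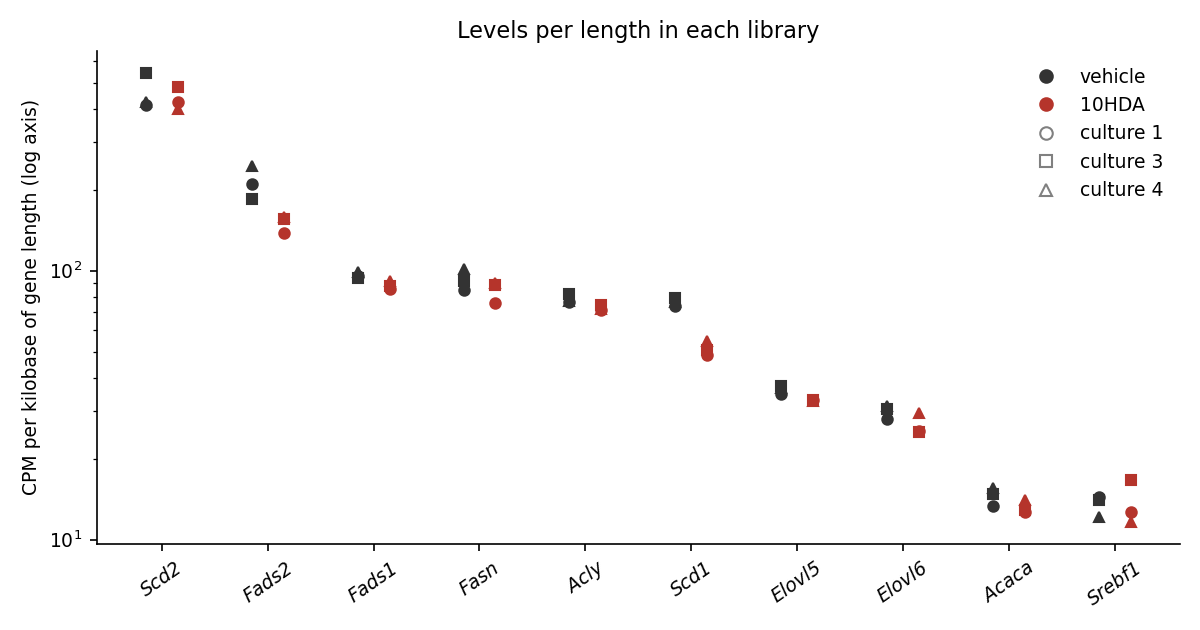
CPM per kilobase of gene length (log axis) of the 10 genes in each library, ordered by their mean with vehicle, with vehicle in black and 10HDA in red and a symbol per culture. Scd2 lies highest and Acaca and Srebf1 lowest under both treatments, and Scd1 drops from the level of Acly to 51.3 CPM per kilobase.

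Of 79 further genes of lipid synthesis in 7 lists, 62 were tested. Without the culture block 0 of the 62 were called (6 had an unadjusted p under 0.05, also in DESeq2 and limma-voom, which called 0 as well). Of all tested genes, 10.1% had such a p in edgeR's quasi-likelihood test without the block. With the block, 6 were called lower and 1 higher, beside the 5.08% and 3.91% of all tested genes. Without culture 1, with the block, 1 was called lower (Fabp7) and 1 higher (Hsd17b12). For the signs given below, 52.1% of all tested genes had a log2 fold change below 0 without the block.

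Among 12 genes for the supply of acetyl-CoA, malonyl-CoA and NADPH, its regulation and malonyl-CoA breakdown, 11 were tested and 2 were called lower with the block. Pcx, pyruvate carboxylase, which refills the pool from which citrate is drawn, had 61.7 ± 0.647 CPM with vehicle and 48.3 ± 3.81 CPM with 10HDA (SD, n = 3 each), which is a log2 fold change of -0.35 (edgeR adjusted p = 0.27, and 0.038 with the block). Thrsp, the lipogenic factor also called Spot 14, had a log2 fold change of -0.42 (edgeR adjusted p = 0.36, and 0.085 with the block). It lay close to the filter of 10 CPM, with 11.9 to 13.4 CPM with vehicle and 8.75 to 10.5 CPM with 10HDA, and so passed it through the vehicle libraries. The median of the list was -0.11.

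The other elongation cycle enzymes had a median of 0.11, with 6 of 8 tested genes above 0. Hacd3, a dehydratase of the elongation cycle, was called higher with the block (log2 fold change of 0.30, edgeR adjusted p = 0.055), with 160 ± 28.1 CPM with vehicle and 198 ± 41.9 CPM with 10HDA (SD, n = 3 each). Without the block, the log2 fold change of Hacd3 was 0.31 with all libraries and from 0.18 (without the 10HDA library of culture 3) to 0.47 (without that of culture 4) when single libraries were left out. Hsd17b12, the ketoreductase of the cycle, had a log2 fold change of 0.24 (edgeR adjusted p = 0.53, and 0.16 with the block). Its log2 ratios within cultures 1, 3 and 4 were 0.08, 0.15 and 0.51. With cultures 3 and 4 alone and the block, Hsd17b12 was called higher (log2 fold change of 0.35, edgeR adjusted p = 0.094).

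Among the other desaturases and their electron donors, of which 6 of 8 were tested, Cyb5r3 was called lower with the block. It encodes cytochrome b5 reductase, which passes electrons to the desaturases, and had 138, 99.4 and 137 CPM with vehicle and 95.9, 93.9 and 104 CPM with 10HDA in cultures 1, 3 and 4. The vehicle library of culture 3 lay under the 10HDA library of culture 4, and the log2 fold change was -0.35 (edgeR adjusted p = 0.41, and 0.044 with the block). Without culture 1 and with the block it was -0.22 (edgeR adjusted p = 0.31). Fads3 had a log2 fold change of -0.16 and did not pass (edgeR adjusted p = 0.60).

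Of 14 genes of SREBP processing and of transcriptional regulators, 12 were tested and 0 were called without or with the block (1 had an unadjusted p under 0.05 with the block and 0 without, in edgeR's quasi-likelihood test, and DESeq2 and limma-voom called 0). Their median was 0.06. Insig1, which holds SREBP in the endoplasmic reticulum and is itself an SREBP target, had 101 ± 10.7 CPM with vehicle and 118 ± 21.6 CPM with 10HDA (SD, n = 3 each), which is a log2 fold change of 0.23 with an interval that includes 0. Rxrb, the partner of nuclear receptors such as LXR, had 0.14.

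Acyl-CoA synthetases and fatty acid carriers had the lowest median of the 7 lists with all cultures, -0.17, with 12 of 13 tested genes below 0 and 3 called lower with the block. All 3 are carriers. Fabp7, the brain fatty acid binding protein of radial glia and astrocytes, had 605, 541 and 458 CPM in the vehicle libraries of cultures 1, 3 and 4 and 436, 422 and 344 CPM in the 10HDA libraries, a log2 fold change of -0.41 (edgeR adjusted p = 0.31, and 0.0067 with the block). Mfsd2a, a transporter of docosahexaenoate, and Dbi, the acyl-CoA binding protein, had -0.41 and -0.36 on the log2 scale (edgeR adjusted p = 0.088 and 0.053 with the block). Dbi rested on culture 1, as its log2 fold change was -0.14 without the vehicle library of that culture and -0.15 without both of its libraries and with the block (edgeR adjusted p = 0.51). Among the synthetases no gene was called.

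In glycerolipid assembly and lipid droplets 9 of 14 genes were tested and 0 were called without or with the block (0 and 2 at an unadjusted p under 0.05 in edgeR's quasi-likelihood test, and 0 called in DESeq2 and limma-voom). Dgat1 and Dgat2, the enzymes that complete triglycerides, had 0.28 and 0.24 on the log2 scale. Within cultures 1, 3 and 4 the log2 ratios were 0.35, 0.37 and 0.05 for Dgat1 and 0.33, 0.20 and 0.17 for Dgat2. In mitochondrial fatty acid synthesis, of which 5 of 6 genes were found and 3 tested, Mcat and Ndufab1 had 0.29 and 0.02, and 0 were called by these tests (0 and 1 at an unadjusted p under 0.05 without and with the block).

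**Figure D5:**
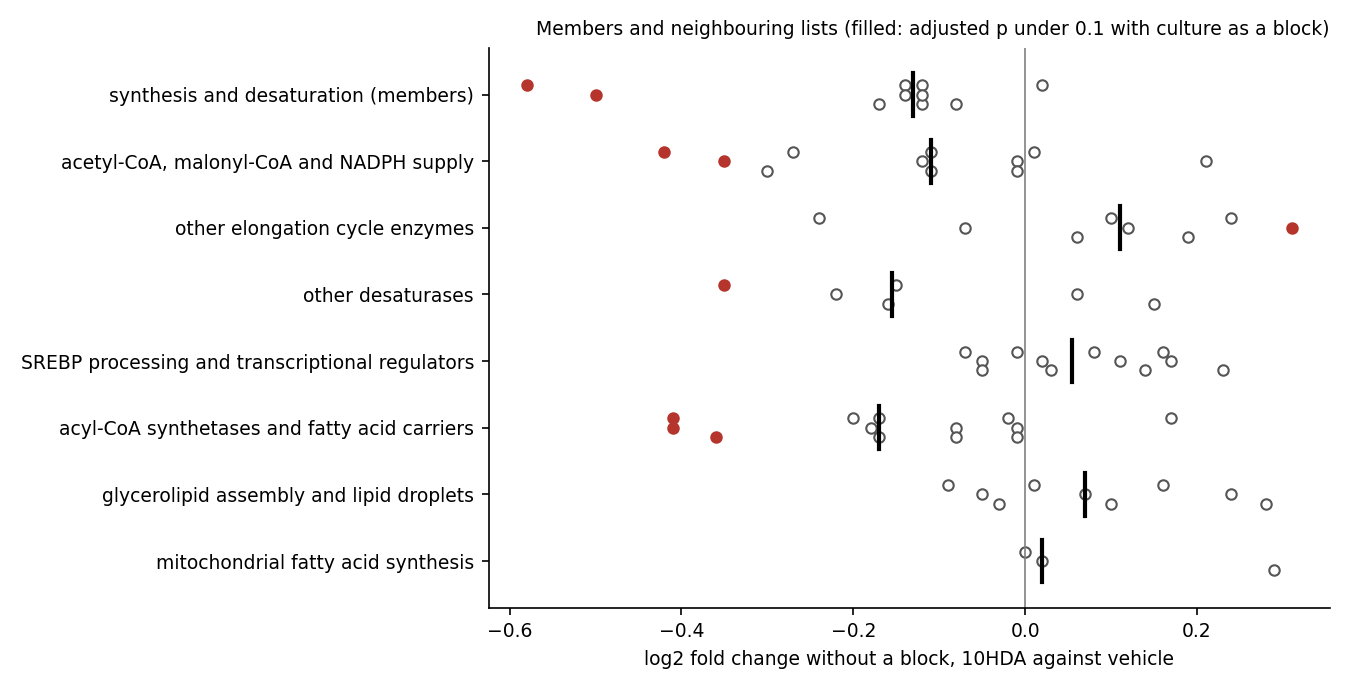
Log2 fold changes without a culture block, 10HDA against vehicle, of the 10 genes and of the tested genes of 7 further lists (1 circle per gene), filled where the adjusted p with culture as a block was under 0.1, with the median of each list as a black bar. Scd1 and Fads2 lie furthest left of all, at -0.58 and -0.50, and the acyl-CoA synthetases and carriers have the lowest median, -0.17.

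Markers of astrocytes moved in the same direction. Of 12 markers 11 were tested, all 11 had a log2 fold change below 0, and 5 were called lower without the block and 7 with it. Their summed level was from 1785 to 2101 CPM in the vehicle libraries and from 1375 to 1645 CPM in the 10HDA libraries. Gfap had 84.6, 65.4 and 103 CPM with vehicle and 24.1, 38.5 and 41.8 CPM with 10HDA in cultures 1, 3 and 4. Aldoc had a log2 fold change of -0.81 and Slc1a3 of -0.23, the former past the threshold (edgeR adjusted p = 0.019) and the latter not (adjusted p = 0.54). Of 10 neuronal markers 9 were below 0, 0 were called without the block (4 at an unadjusted p under 0.05) and 4 with it, and their summed level was from 6859.7 to 7214 CPM with vehicle and from 5690.1 to 6323 CPM with 10HDA. The part of these markers in the values of Scd1, Fads2 and Fabp7 was not tested.

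Of 9 genes of the oligodendrocyte lineage 8 were tested and 5 were below 0, with 1 called lower without the block and 3 with it. Their summed level was from 362 to 452 CPM with vehicle and from 278 to 391 CPM with 10HDA. Sox10, Pdgfra and Cspg4, genes of oligodendrocyte precursors, had log2 fold changes of -1.44, -1.21 and -0.92, and all 3 were called lower with the block, Cspg4 also without it (edgeR adjusted p = 0.20, 0.15 and 0.043 without the block). Olig2 had 0.24 and did not pass (edgeR adjusted p = 0.46). Olig1 and Mog were also above 0, at 0.06 and 0.11, and Mbp and Cnp had -0.06 and -0.28. None of these was called in either fit, so that the list did not fall as a whole. Of 8 radial glia genes, which include Fabp7, 6 were tested and 4 were below 0, with 0 called without the block (2 at an unadjusted p under 0.05) and 2 with it. These were Fabp7, which was lower, and Vim, which was higher (log2 fold change of 0.32, edgeR adjusted p = 0.041 with the block). Of the 6 microglial, 5 endothelial and 6 fibroblast and pericyte genes, 0, 0 and 1 were tested, with summed levels of at most 1.10, 2.63 and 27.7 CPM in any library. The gene tested was Pdgfrb, a receptor of pericytes, which was called lower in both fits (log2 fold change of -1.07, edgeR adjusted p = 0.043 without the block). Sox10 and Pdgfrb were under 10 CPM in all 10HDA libraries and passed the filter through the vehicle libraries. The part of these genes in the values of Scd1 and Fads2 was not tested either.

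The tested genes outside the set whose pattern over the 6 libraries was most like that of the 10 genes were Grin3a, Prdm16, B3gat2, Akt2-ps and Etv6, with Pearson's r from 0.989 to 0.995 between their log2 CPM and the mean of the standardized log2 CPM of the members. These are the highest values among 10520 genes in 6 libraries, and the points share their libraries, cultures and treatment. Within the set, r with the same mean was from 0.80 to 0.94 for 8 genes, 0.43 for Scd2 and 0.04 for Srebf1. That mean includes the gene itself, which raises these values and makes them unlike those of the genes outside the set.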

How the data were processed

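Total RNA of 3 cultures, each with vehicle and with 10HDA, was made into 6 strand-specific libraries. According to the methods, the authors aligned untrimmed single-end reads of 50 bases to mm10 with Subjunc of Subread 1.4.4 and summarized them per gene with featureCounts on Gencode models. The deposited values are raw counts, which the authors had neither normalized nor filtered. The table holds 43346 genes, with 0 further sample columns, and 98.0% of identifiers matched a GENCODE M21 symbol.

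The filter asked for 10 CPM in 3 or more libraries, which left 10520 genes. Libraries were scaled by TMM, and edgeR 4.0.16 (R 4.3.3) gave the quasi-likelihood test, adjusted by Benjamini-Hochberg, with a threshold of 0.1. Filter, scaling and threshold are those of the methods. At the depth of these libraries 3 counts correspond to 0.22 to 0.33 CPM, which covers counting error only. Standard errors are the fold change over the square root of F, and 95% intervals use the t distribution. The labels place the libraries in shared cultures, and deviations from the treatment means correlated at 0.37, 0.24 and 0.62 within cultures 1, 3 and 4, against -0.45 to 0.18 between cultures (across genes, which are not replicates). P-values rest on the spread between these cultures, moderated toward that of all tested genes, and not on that of a single gene alone. The log2 ratios within cultures 1, 3 and 4 differed more for Fads2 (-0.61, -0.25 and -0.62) than for Acly (-0.10, -0.14 and -0.11). Yet their standard errors with culture as a block were close, 0.097 and 0.091.

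Alternatives were other scalings and filters, DESeq2 1.42.0, limma-voom (limma 3.58.1), culture as a block, and each library or culture left out. Shared sequence was counted as stretches of 50 bases in GENCODE M21 transcripts, and promoters are from RefSeq (GRCm38.p6). The fits were tested on simulated data in which 200 genes, none of low abundance, were changed and cultures did not differ. At a log2 change of 0.5, 106 were recovered without the block and 100 with it, with 7 and 5 false calls. At a log2 change of 1 all 200 were recovered in both, with 19 and 21 false calls. How the block handles differences between cultures was not tested. The 10 genes and all lists were chosen with earlier results of these data known. Genes named are the 10 members, companion genes called in either fit, the 2 with the smallest p of each companion list, the 5 tested genes most correlated with the members, and fixed cell type markers. Ratios of paralogs were added after their values were seen.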

Additional observations from a re-analysis of the deposited data

How the results depend on the processing

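The count of genes past the threshold, 66 at first, was 945 with culture as a replicate block, 711 with the block and without culture 1, 170 with DESeq2, 636 without a filter and 43 at a threshold of 0.05. It ranged from 0 (without the 10HDA library of culture 1, where 469 had an unadjusted p under 0.05 in edgeR's quasi-likelihood test) to 350 when single libraries were left out, and was 3, 0 and 36 without cultures 1, 3 and 4. With library size alone as the scaling 46.7% of calls were higher, against 31.8% with TMM. Of the 10 genes 1 was called, and 2 were with the replicate block, with DESeq2, without a filter and with the block without culture 1, each time Scd1 and Fads2. Without culture 1 or culture 3 and without the block 0 were called (2 at an unadjusted p under 0.05), and from 0 to 2 when single libraries were left out. Without the replicate block Fads2 passed with DESeq2 (adjusted p = 0.0135), without a filter (edgeR adjusted p = 0.00273) and without the 10HDA library of culture 4 (0.0809). With all libraries the block changed the call on Fads2 and on no other of the 10 genes, and without culture 1 it changed those on Scd1 (edgeR adjusted p = 0.308 without it and 0.00169 with it) and Fads2 (0.602 and 0.0218). The median log2 fold change of the 10 genes was -0.10 with upper quartile scaling, -0.05 with library size alone, and from -0.16 to -0.11 when single libraries were left out. With library size alone, 3 genes had all 10HDA libraries under all vehicle libraries. Srebf1 turned negative without the vehicle library of culture 4 (-0.03), without the 10HDA library of culture 3 (-0.15) and without culture 3 (-0.12), and ran from -0.15 to 0.12 when single libraries were left out. Scd2 was 0.08 without the vehicle library of culture 3. Ndufab1 ran from -0.02 to 0.14 when single libraries were left out. It was -0.02, -0.01 and -0.02 without the vehicle libraries of cultures 3 and 4 and the 10HDA library of culture 3, and -0.07 and -0.02 without cultures 3 and 4. Apart from these settings, where fewer libraries were used, the cause of the changes was not tested. The remaining 7 of the 10 genes besides Srebf1, Scd2 and Scd1 were negative under all 18 alternatives, as was Scd1, which passed in 12 of them. The intervals of Acly, Fasn and Elovl5 include 0, and whether decreases of their size could be called with 3 libraries per treatment was not tested.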
